A study of Mus musculus with 6 samples.

Results

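A set of 10 imprinted growth regulators were followed in the prostates of 6 mice, namely H19, Meg3, Rian, Mirg, Dlk1, Peg3, Plagl1, Cdkn1c, Grb10 and Mest. They were chosen by gene symbol as imprinted genes of growth control, with earlier results of these data known. The deposited table, with 34745 genes, held all 10. All 10 had enough counts to be tested, together with 15580 genes in all. The mice were male C57BL/6 animals with their own gonads, 6 to 8 weeks old at the start. In the T + E2 group (n = 3), a pellet of testosterone and estradiol was placed under the skin for 12 weeks and renewed monthly, and in the CON group (n = 3) the skin was cut and closed without a pellet. There was no arm with either hormone alone, so the contributions of testosterone and estradiol cannot be told apart, and RNA came from prostate tissue whose lobe was not given. RNA was read by paired-end sequencing, and whole-number counts of reads per gene were compared.

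Imprinted genes are read mainly from one parental copy. For most of them the choice of copy depends on DNA methylation laid down in the egg or the sperm. Many of them act on growth before birth, with genes read from the father's copy tending to promote growth and those read from the mother's copy tending to restrain it. The expression of many of them falls in most organs after birth. H19, Meg3, Rian and Mirg are noncoding RNAs read from the maternal copy, and Cdkn1c, a cyclin-dependent kinase inhibitor, is maternal as well. Grb10, an adaptor that dampens insulin and IGF signalling, is maternal outside the nervous system. Dlk1, Peg3, Plagl1 and Mest are read from the paternal copy. The counts do not separate the parental copies, so every value below is the sum over both.

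Of the 10 genes, 1 changed between the groups. Mest was lower in the T + E2 group, and the other 9 did not reach an adjusted p of 0.05 (quasi-likelihood F test in edgeR, adjusted by Benjamini-Hochberg over all tested genes). Among all tested genes, 19.6% reached that threshold, 9.25% with lower and 10.4% with higher values in the T + E2 mice, so 1 of 10 was no more than the background. At an unadjusted p of 0.05, 5 of the 10 genes passed (H19, Meg3, Rian, Grb10 and Mest), beside 34.5% of all tested genes. The log2 fold change (T + E2 minus CON) was below 0 for 9 of the 10, with a median of -0.61, whereas 50.2% of all tested genes were below 0 and their median was -0.002. H19 was the exception in sign. The T + E2 mice all lay below the CON mice for Meg3, Rian, Dlk1 and Mest, which is 4 of 10 beside 20.7% of all tested genes, and all lay above them for H19, which is 1 of 10 beside 20%. The genes share libraries and in part a locus, so these counts are a description.

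**Figure D1:**
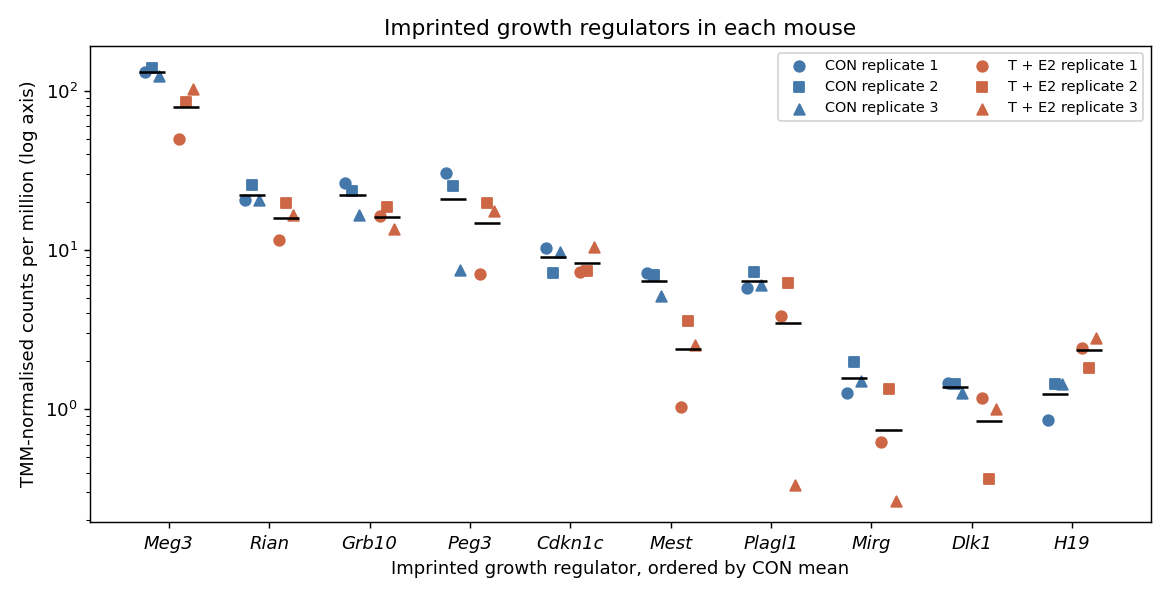
Expression of the 10 imprinted growth regulators in each mouse, in TMM-normalised CPM on a log axis, with CON in blue, T + E2 in orange, one symbol per replicate and a black bar at each group mean. Meg3, Rian, Dlk1 and Mest are lower in all T + E2 mice than in any CON mouse, H19 is higher, and the other 5 genes overlap.

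Values are given as CPM, the share of a library's counts scaled by TMM factors. Libraries held 14816146 to 16555549 counts, at which 3 counts were worth 0.182 to 0.207 CPM, and this limit covers counting error only. Transcripts of the seminal vesicle (summed Svs2, Svs3a, Svs4, Svs5 and Svs6) stood at 9894 CPM in CON replicate 2 and 599.9 CPM in T + E2 replicate 2, and between 0.628 and 3.7 CPM in the other 4 mice. The prostate label was met by probasin (Pbsn), the abundant secretory protein of the mouse prostate, at 12343 to 16628 CPM in the CON group and 1258 to 1752 CPM in the T + E2 group. In bulk tissue, fewer cells of a type and less RNA per cell cannot be told apart.

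To compare the genes with each other, CPM were divided by the length of their non-overlapping exons, which gives CPM per kilobase. By this measure Meg3 had the highest level in the CON group, at 7.27 ± 0.446 CPM per kilobase (SD, n = 3), above 63.7% of tested genes. Cdkn1c followed with 4.45 ± 0.826 and Grb10 with 2.43 ± 0.546. Mest (1.63 ± 0.279), Peg3 (1.58 ± 0.901) and Rian (1.22 ± 0.151) came next, and in that order each overlapped its neighbour. Plagl1 (0.813 ± 0.105), H19 (0.508 ± 0.137), Dlk1 (0.245 ± 0.0198) and Mirg (0.216 ± 0.0496) were the lowest, and Dlk1 and Mirg overlapped. The median of tested genes was 4.37 CPM per kilobase, so 8 of the 10 genes lay in the lower part of the distribution. In the T + E2 group Meg3, Cdkn1c and Grb10 were again the first 3, Mest moved from place 4 to place 7, and H19 moved from place 8 to place 5. The deposited FPKM were not used for this order, because the length behind them is longer than the whole gene for Dlk1 (16789 against 10514 bases), H19 (5688 against 2615) and Cdkn1c (2815 against 2701).

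Mest encodes a protein of the alpha/beta hydrolase fold, is expressed in mesoderm of the embryo and is known for its rise in expanding fat tissue. The gene lies on chromosome 6 of build GRCm38 (30723547 to 30748465). It had 7.14, 6.96 and 5.15 CPM in CON animals against 1.04, 3.59 and 2.53 CPM in the T + E2 mice. Every T + E2 mouse lay below every CON mouse, and T + E2 replicate 1 was the lowest, with 15 counts. The group means were 6.42 ± 1.1 and 2.39 ± 1.28 CPM (SD, n = 3 in each), a 2.69-fold lower level in the T + E2 group. The log2 fold change was -1.41 (standard error 0.39, 95% interval -2.31 to -0.52, Benjamini-Hochberg adjusted p = 0.0389 by edgeR). Mest thus also met the threshold of an absolute log2 fold change over 1 used in the study for DEGs, which 3.38% of tested genes met with lower and 4.27% with higher expression. With single mice left out, Mest kept its sign but reached the threshold in 2 of 6 edgeR fits. It missed it without CON replicate 1 (adjusted p = 0.0877), CON replicate 2 (0.0917), CON replicate 3 (0.0641) and T + E2 replicate 3 (0.0849). Without both replicates 2, the mice with seminal vesicle transcripts, the log2 fold change of Mest was -1.78 (adjusted p = 0.0718), and none of the 10 genes was called. Over all 14 alternatives tried the adjusted p of Mest ranged from 0.00396 to 0.0917.

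The neighbour Copg2, which encodes a coat protein of vesicles, shares 912 bases with Mest, and the library kit does not mark strand. It had 55.3 to 60.9 CPM in CON animals against 62.8 to 81.9 CPM in the T + E2 mice, with a log2 fold change of 0.30 in the opposite direction from Mest (edgeR adjusted p = 0.106). Fat markers (Adipoq, Plin1, Lep and Cfd) summed to 72.2 to 455.5 CPM in the CON group and 37.5 to 119.3 CPM in the T + E2 group. The highest sum was that of CON replicate 2. The log2 fold changes of Adipoq, Plin1 and Cfd were -1.58, -1.98 and -1.42. None of these 3, which could be tested, passed (edgeR adjusted p = 0.138, 0.0926 and 0.193), and Lep was at 0 in all T + E2 mice. T + E2 replicate 1, the mouse with the lowest Mest, had the highest fat marker sum of its group. The part of fat tissue in the Mest difference was not tested.

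Mest is the gene with the one called difference, so the sequence at its start is shown. RefSeq (build GRCm38.p6) gives 3 start windows of 300 bases for Mest, 250 before and 50 after the start, of which chr6:30737800-30738099 on the plus strand holds 17 CpG dinucleotides, more than or as many as 70.3% of windows. The CpG island at the start of Mest is methylated on the maternal copy. Capitals mark CpG, the dinucleotide that carries this methylation, which was not measured here.
Mest start window: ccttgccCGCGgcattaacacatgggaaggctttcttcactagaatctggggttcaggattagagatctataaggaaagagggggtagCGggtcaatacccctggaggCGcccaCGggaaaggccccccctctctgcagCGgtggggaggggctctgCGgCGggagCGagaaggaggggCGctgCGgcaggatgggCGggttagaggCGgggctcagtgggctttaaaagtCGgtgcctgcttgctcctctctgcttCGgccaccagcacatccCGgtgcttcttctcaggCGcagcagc

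An intron of Mest carries miR-335. Its mature forms are shown because they are made from the same precursor transcript, and the seed, bases 2 to 8, is in capitals. The 2 forms lie at chr6:30741314-30741336 and chr6:30741354-30741375 on the plus strand. Mature miRNAs were not measured, since gene counts come from longer fragments.
mmu-miR-335-5p: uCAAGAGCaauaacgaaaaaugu
mmu-miR-335-3p: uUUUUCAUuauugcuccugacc

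Meg3, Rian and Mirg lie in a row on the maternal copy of the Dlk1-Dio3 region of chromosome 12, and in the mouse they are thought to be read largely as one long transcription unit. Meg3, the most abundant of the 10 genes, spans 109541001 to 109571726 of GRCm38. It had 130.8, 139.8 and 123.7 CPM in CON animals against 49.7, 85.1 and 101.9 CPM in the T + E2 mice. The groups did not overlap, and the T + E2 mice were spread over a wider range than the CON mice. Meg3 had a mean of 131.4 ± 8.07 CPM in the CON group and 78.9 ± 26.6 CPM in the T + E2 group (SD over 3 mice). Its log2 fold change was -0.74 ± 0.23 (SE, 95% interval -1.26 to -0.21), and its adjusted p by edgeR was 0.0578, just outside the threshold. DESeq2 called it, with an adjusted p of 0.0043. So did edgeR without T + E2 replicate 1 (log2 fold change -0.49, adjusted p = 0.049) and without T + E2 replicate 3 (-0.96, adjusted p = 0.0303). Over the 14 alternatives the adjusted p of Meg3 ranged from 0.0043 to 0.211, the latter without both replicates 2.

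Rian, which carries a large array of small nucleolar RNAs, lies 151.1 kb from the start of Dlk1. Its level was 20.7, 25.5 and 20.7 CPM in CON animals against 11.5, 19.8 and 16.5 CPM in the T + E2 mice, again without overlap. The log2 fold change of Rian was -0.49 (standard error 0.2, adjusted p = 0.123 from edgeR), and -0.30 without T + E2 replicate 1 (adjusted p = 0.251). Mirg, a host of many miRNAs, was near the detection limit, with 19, 30 and 24 counts in CON animals against 9, 22 and 4 counts in T + E2 animals. The groups overlapped for Mirg, and its log2 fold change of -1.06 had an interval from -2.22 to 0.09 (edgeR adjusted p = 0.177). It was -1.81 without T + E2 replicate 2 (adjusted p = 0.0543) and -0.67 without T + E2 replicate 3 (adjusted p = 0.314).

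The levels of the 3 RNAs were also summed in each mouse, as they are thought to share a transcription unit. On the log2 scale the sum of CPM was 7.25, 7.39 and 7.19 in CON animals against 5.95, 6.73 and 6.89 in the T + E2 mice. The means differed by -0.75 (exact two-sided permutation test, p = 0.1, the smallest p that 3 against 3 mice allow). Most of the sum is Meg3. Leaving out T + E2 replicate 1, the lowest mouse, reduced the difference to -0.47.

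Of the 39 mature miRNAs that RefSeq places inside the 10 genes, 26 lie in Mirg, 6 in Rian, 3 in Meg3, 2 in H19 and 2 in Mest. They hold 38 different seeds, and the only pair with a common seed is miR-453 and miR-496a-5p of Mirg. That pair and the miR-370 and miR-770 forms of Rian and Meg3 are shown to give the products that these noncoding RNAs carry, with the seed in capitals. On the plus strand, miR-453 lies at chr12:109735669-109735692, miR-496a-5p at chr12:109739132-109739152, miR-370 within chr12:109618270-109618326 and miR-770 within chr12:109563710-109563765.
mmu-miR-453: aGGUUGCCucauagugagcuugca
mmu-miR-496a-5p: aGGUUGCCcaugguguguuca
mmu-miR-370-3p: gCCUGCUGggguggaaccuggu
mmu-miR-370-5p: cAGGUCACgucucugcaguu
mmu-miR-770-5p: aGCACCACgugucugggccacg
mmu-miR-770-3p: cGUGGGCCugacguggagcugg

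At the ends of the same region lie protein-coding genes. Dlk1 (109452823 to 109463336) encodes a transmembrane protein with EGF-like repeats that keeps progenitor cells such as preadipocytes undifferentiated. It was barely detected, with 22, 22 and 20 counts in CON animals against 17, 6 and 15 counts in T + E2 animals. The T + E2 values (1.17, 0.365 and 1 CPM) all lay below the CON values (1.26 to 1.46 CPM), but the log2 fold change of -0.72 had an interval from -1.67 to 0.23 (edgeR adjusted p = 0.255). Without T + E2 replicate 2 it was -0.35 (adjusted p = 0.522). The log2 ratio of Dlk1 to Meg3, neighbours read from opposite parental copies, was -6.49, -6.6 and -6.62 in the CON mice. In the T + E2 mice it was -5.4, -7.87 and -6.67 (SD 1.23 against 0.0704). At 6 to 22 counts of Dlk1 a mouse, counting error enters these ratios. The SDs therefore do not show that the spread between mice differed. The means differed by -0.08 (exact two-sided permutation test, p = 0.7). Without T + E2 replicate 2, the mouse with 6 counts of Dlk1, this difference in means was 0.53.

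Dio3, at the far end, 826.2 kb from the start of Dlk1, encodes the deiodinase that inactivates thyroid hormone. It is not one of the 10 genes and was followed as part of the region. It was higher in the T + E2 group, with 3.94, 3.16 and 4.73 CPM against 1.72, 1.44 and 2.32 CPM in the CON group, and the fitted log2 difference was 1.10 ± 0.27 (SE, adjusted p = 0.0259 by edgeR). The other 4 tested genes of the region had log2 fold changes below 0, and none of them was called. Of 10 rows of the table between Dlk1 and Dio3, 5 could be tested and 3 had no count in any mouse. Dio3 passed in 2 of 6 edgeR fits on 5 mice, and it missed the threshold without CON replicate 1, CON replicate 2, T + E2 replicate 1 or T + E2 replicate 3 (highest adjusted p = 0.0854). Gm26906 and Gm26945, which overlap Meg3 and Rian, held 0 and at most 3 counts in a mouse.

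**Figure D2:**
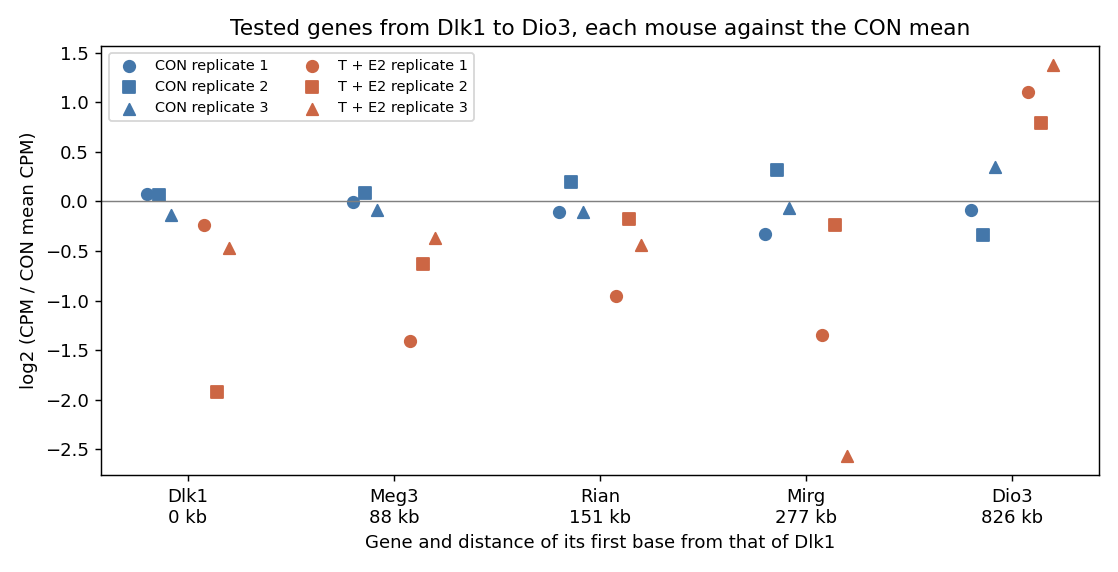
Tested genes from Dlk1 to Dio3 on chromosome 12, with the distance of each first base from that of Dlk1 in kilobases, and on the vertical axis the log2 ratio of the CPM of each mouse to the CON mean. Dlk1, Meg3, Rian and Mirg lie below 0 in all T + E2 mice, Dio3 lies above 0 in all of them, and the lowest T + E2 mouse differs between genes.

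H19 was the only one of the 10 with a positive log2 fold change. This noncoding RNA of chromosome 7 (142575529 to 142578143) is read from the maternal copy and shares its imprinting control with Igf2, the growth factor read from the paternal copy. H19 had 13, 22 and 23 counts in CON animals against 35, 30 and 42 counts in T + E2 animals. All T + E2 mice (2.42, 1.82 and 2.8 CPM) lay above all CON mice (0.86, 1.44 and 1.44 CPM), a 1.88-fold difference in means. The log2 fold change was 0.90 (standard error 0.31, 95% interval 0.19 to 1.61), and the edgeR adjusted p was 0.077. It ranged from 0.0772 to 0.181 over 14 alternatives, none of which called H19. Igf2 had 10.7, 12.3 and 8.35 CPM in CON animals against 12.5, 14.4 and 13.5 CPM in the T + E2 mice. These groups did not overlap either, and the log2 fold change of Igf2 was 0.37 (standard error 0.16, edgeR adjusted p = 0.153). H19 and Igf2, which compete for the same enhancers, therefore both had higher values in the T + E2 mice, without passing the test. H19 is the precursor of miR-675, whose mature forms are given with the seed in capitals (chr7:142577112-142577133 and chr7:142577078-142577099, minus strand).
mmu-miR-675-5p: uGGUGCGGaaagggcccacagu
mmu-miR-675-3p: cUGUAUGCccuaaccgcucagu

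Peg3 and Plagl1 encode zinc finger proteins read from the paternal copy, and for both the SD within one group was larger than the difference between the group means. Peg3 (chromosome 7, 6703892 to 6730421) had 30.5, 25.1 and 7.54 CPM in CON animals against 7.05, 19.6 and 17.5 CPM in the T + E2 mice. CON replicate 3 and T + E2 replicate 1 were low and alike, and the other 4 mice were higher. The log2 fold change of -0.51 had an interval from -1.69 to 0.67 (edgeR adjusted p = 0.519), and it lay between -0.91 (without CON replicate 3) and -0.14 (without CON replicate 1) in the fits on 5 mice. Plagl1 (chromosome 10, 13060504 to 13131694), a factor that slows the cell cycle and acts on other imprinted genes, had 87, 111 and 96 counts in CON animals against 56, 102 and 5 counts in T + E2 animals. T + E2 replicate 3 stood far below the other 5 mice, at 0.333 CPM against 3.87 to 7.29 CPM. Its log2 fold change was -0.87 (95% interval -2.42 to 0.69, edgeR adjusted p = 0.402). Without T + E2 replicate 3, the mouse with 5 counts, it was -0.33 (adjusted p = 0.409), and without T + E2 replicate 2 it was -1.60 (adjusted p = 0.218).

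Cdkn1c and Grb10 are the growth-restraining protein genes of the maternal copy, and neither passed the test. Cdkn1c (chromosome 7, 143458350 to 143461050), which encodes the inhibitor p57, had 10.3, 7.15 and 9.73 CPM in CON animals against 7.26, 7.36 and 10.4 CPM in the T + E2 mice. The ranges were almost the same, and the log2 fold change was -0.12 with an interval from -0.61 to 0.36 (edgeR adjusted p = 0.72). A change of 2-fold in either direction lies outside this interval. Grb10 (chromosome 11, 11930508 to 12038683) had 26.3, 23.3 and 16.6 CPM in CON animals against 16.2, 18.7 and 13.5 CPM in the T + E2 mice. CON replicate 3 lay within the range of the T + E2 mice, and the log2 fold change was -0.45 (standard error 0.19, edgeR adjusted p = 0.141).

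**Figure D3:**
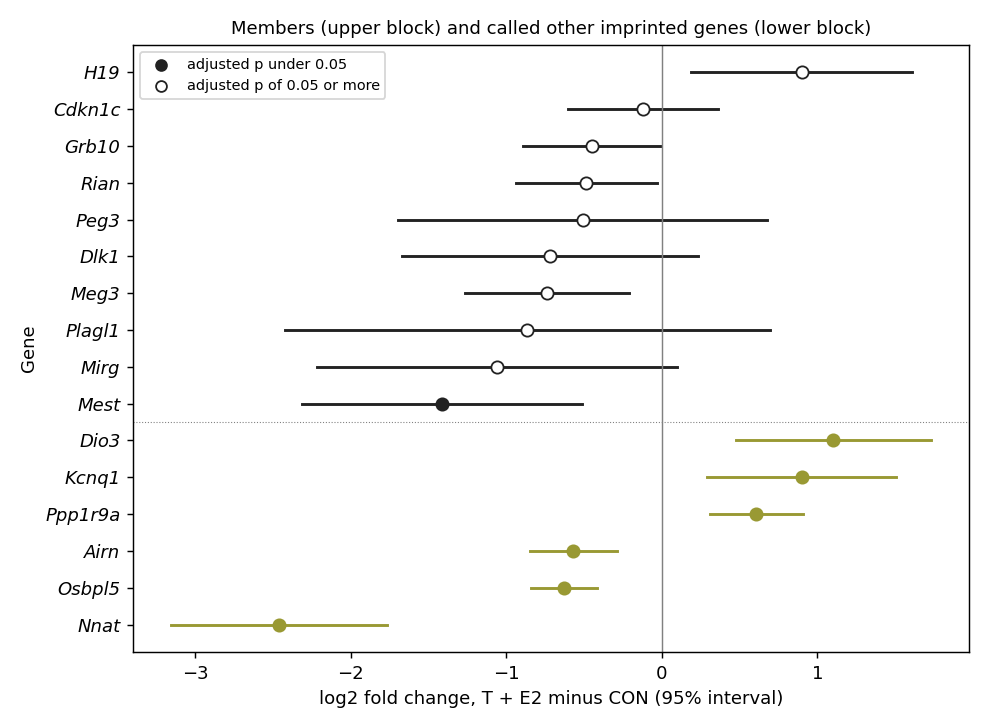
Log2 fold change (T + E2 minus CON) with its 95% interval for the 10 imprinted growth regulators (upper block, black) and for the 6 called genes among the other imprinted genes (lower block), with filled points for an adjusted p under 0.05 by edgeR. In the upper block Mest is filled, at -1.41, and H19 is the only point above 0.

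The mice of the T + E2 group did not move as one. T + E2 replicate 1 had the lowest value of all 6 mice for Meg3, Rian, Peg3 and Mest, T + E2 replicate 3 for Mirg, Plagl1 and Grb10, and T + E2 replicate 2 for Dlk1. The median log2 ratio to the CON mean over the 10 genes was -0.84, -0.24 and -0.45 in T + E2 replicates 1, 2 and 3. In the CON mice it was 0.03, 0.15 and -0.10.

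**Figure D4:**
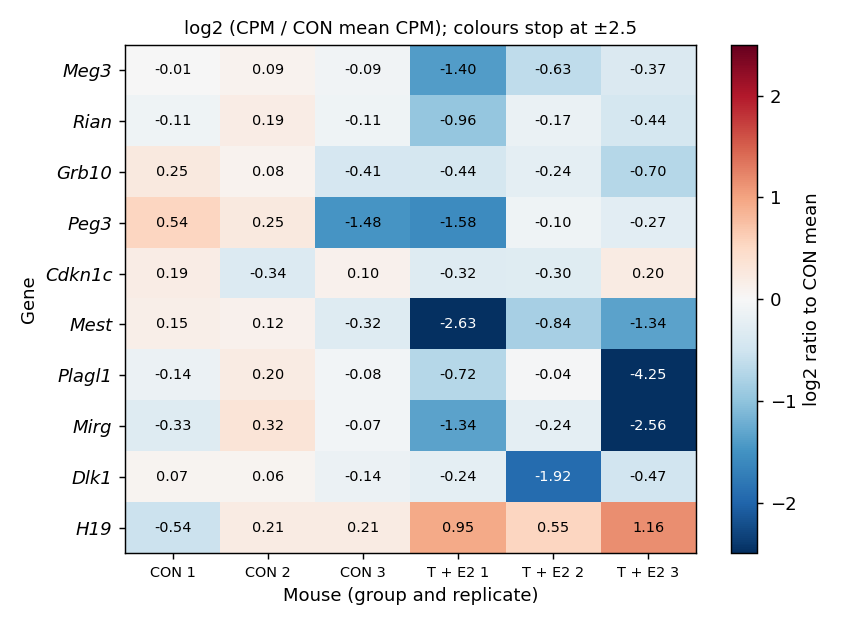
Log2 ratio of the CPM of each mouse (columns) to the CON mean for the 10 genes (rows), with red for higher and blue for lower values and colours that stop at 2.5 in either direction. The strongest blue cells are Plagl1 and Mirg in T + E2 replicate 3 and Mest in T + E2 replicate 1, so the low values fall in different mice.

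Several of these genes are known to be abundant in nerve tissue, so markers of neurons and neuroendocrine cells are set beside them. Elavl4, an RNA-binding protein of neurons, had 6.22, 5.32 and 3.89 CPM in CON animals against 1.59, 2.74 and 2.53 CPM in T + E2 animals. It was lower in the T + E2 group (log2 fold change -1.16, edgeR adjusted p = 0.0247). CON replicate 3 was the lowest CON mouse and T + E2 replicate 1 the lowest of all, which are also the mice with low Peg3. The order of the mice was not the same for both genes. CON replicate 3 had more Elavl4 than T + E2 replicates 2 and 3, but less Peg3 (7.54 against 19.6 and 17.5 CPM). Chga of neuroendocrine cells was higher in the T + E2 group (log2 fold change 1.41, edgeR adjusted p = 0.00487). The part of nerve tissue in the values of the imprinted genes was not tested.

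Markers of other cell types are given for comparison, and their counts stand beside 9.25% of all tested genes lower, 10.4% higher and 19.6% called in either direction. Smooth muscle markers summed to 3464 to 4316 CPM in the CON group and 3014 to 3304 CPM in the T + E2 group, with 2 of 6 lower (Acta2 and Des) and none higher. Fibroblast markers summed to 1697 to 1831 and 1762 to 2109 CPM, with 1 of 8 lower (Pdgfrb). Skeletal muscle markers summed to 75.4 to 321.8 and 96.4 to 270.8 CPM, with none of 7 called and Myod1 at 0 in every mouse. Endothelial and basal epithelial markers each had 1 called gene, higher in the T + E2 group (Vwf of 5 and Trp63 of 3), and no leukocyte marker of 5 was called. Of 6 luminal epithelial markers, Pbsn and Krt18 were lower and Epcam and Cdh1 higher.

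Beyond the 10 genes, 47 other imprinted genes were listed, of which 36 could be tested. The call rate was 6 of 36, with 3 lower (Nnat, Osbpl5 and Airn) and 3 higher (Dio3, Kcnq1 and Ppp1r9a), which is close to the 19.6% of all tested genes. The median log2 fold change of this list was -0.08, and 21 of the 36 were below 0. Nnat, a small membrane protein of nerve and endocrine cells read from the paternal copy, differed most. It had 7.01, 13.9 and 11.4 CPM in CON animals against 1.52, 2.37 and 1.93 CPM in the T + E2 mice. Its level was 5.54-fold lower in the T + E2 group (log2 fold change -2.46, standard error 0.3, edgeR adjusted p = 0.00127), and all 6 fits on 5 mice called it. Nnat lies within Blcap, which had 474 to 531 counts in CON animals against 482 to 578 in T + E2 animals.

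Osbpl5, a lipid transfer protein gene of the Cdkn1c domain that is read from the maternal copy in the placenta, was lower, with 51.3 to 54.9 CPM in CON animals against 32.1 to 37.3 CPM in the T + E2 mice. The log2 fold change of Osbpl5 was -0.63 (standard error 0.09, edgeR adjusted p = 0.00273), and all 6 fits without one mouse called it. Kcnq1, a potassium channel gene of the same domain, was higher (log2 fold change 0.90, edgeR adjusted p = 0.0484) and was called in 1 of those 6 fits, the one without CON replicate 2 (highest adjusted p = 0.127). The noncoding RNA Kcnq1ot1, which lies within Kcnq1 and silences the domain on the paternal copy, had 168 to 192 counts in CON animals against 149 to 192 in T + E2 animals. Airn, the noncoding RNA that silences Igf2r, was lower, at 14.3 to 15 against 8.98 to 10.6 CPM (log2 fold change -0.57, edgeR adjusted p = 0.015). It was not called without CON replicate 3 or T + E2 replicate 1 (highest adjusted p = 0.0575), nor without both replicates 2. Airn shares 28354 bases with Igf2r. The level of Igf2r was 207.8 to 212.4 CPM in CON animals against 220.7 to 262.7 CPM in the T + E2 mice (log2 fold change 0.24, edgeR adjusted p = 0.123). Ppp1r9a, an actin-binding protein gene near Peg10, was higher, with a log2 fold change of 0.61 (edgeR adjusted p = 0.0148). Its fold change stayed between 0.56 and 0.66 in the fits on 5 mice, but the call was lost without T + E2 replicate 1 (adjusted p = 0.0549), in both limma fits on FPKM and without both replicates 2. Without T + E2 replicate 1 the count of called genes in this list was 2, Nnat and Osbpl5.

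Genes that lay down or keep imprints were set beside them. Of 14 listed, 11 could be tested and 2 were called, a share close to the 19.6% of all tested genes. Zfp445, a zinc finger protein that binds imprinted control regions, was higher (log2 fold change 0.55, edgeR adjusted p = 0.0155), with 40.6 to 51.5 CPM in CON animals against 61.3 to 71.9 CPM in the T + E2 mice. Trim28, the corepressor that such zinc finger proteins recruit, was lower (log2 fold change -0.44, edgeR adjusted p = 0.0235), with 177.2 to 196.4 and 125 to 153 CPM. Neither was called without CON replicate 2, without CON replicate 3 or without T + E2 replicate 2, and Trim28 was also not called without T + E2 replicate 1, so that it passed in 2 and Zfp445 in 3 of the 6 fits on 5 mice (adjusted p up to 0.0879 and 0.0573).

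Of 16 relatives and partners of the 10 genes, 14 could be tested and 2 were called, which is below the 19.6% of all tested genes. Grb14, the adaptor most like Grb10, was lower (log2 fold change -0.59, edgeR adjusted p = 0.0251), and Igf1r, the receptor on which Grb10 acts, was higher (0.59, edgeR adjusted p = 0.0392). Grb14 had 16 to 21.2 CPM in CON animals against 10.8 to 13.1 CPM in the T + E2 mice, and Igf1r had 30.7 to 44.7 and 46.9 to 63.3 CPM. Grb14 was called only without CON replicate 1, and Igf1r only without CON replicate 1 or T + E2 replicate 2, among the 6 fits on 5 mice, with adjusted p up to 0.0847 and 0.112. The median log2 fold change of this list was -0.02.

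The start windows of the genes were searched for short motifs, on both strands. RefSeq gave 12 windows for 8 of the 10 genes, and H19 and Cdkn1c were not among them. The PLAGL1 motif GGGGCCCC was present in 1 of the 12 windows, that of Peg3, beside 1.08% of all 32851 windows. The full elements of the oestrogen receptor (GGTCA and TGACC, 3 bases apart) and of the androgen receptor (AGAACA and TGTTCT, 3 bases apart) were found in 0 of the 12 windows, beside 0.07% and 0.00913% of all windows. The oestrogen half-site TGACC, which a full element would also hold, was in 6 windows, beside 40.5% of all. The Mest windows chr6:30737800-30738099 and chr6:30737803-30738102 overlap almost wholly, so the same site is counted in both. The androgen half-site TGTTCT was in 2, beside 19% of all. These matches describe the letters in these windows alone.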

How the data were processed

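RNA-seq of the prostate was compared between 3 T + E2 and 3 CON mice, grouped by the sample labels. The authors deposited whole-number counts of reads per gene and FPKM values for each mouse. The submitters' processing notes name TopHat, Bowtie2 and HTSeq without versions, and the annotation is not given in the sources used here. Of the gene identifiers, 34267 occur in GENCODE M21 (GRCm38), whose exons gave the lengths. The divisor length behind the deposited FPKM was a median of 1.15 times the non-overlapping exonic length and exceeded the gene itself for 5.89% of 19233 genes. FPKM were therefore used in alternatives only.

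The test was edgeR 4.0.16 under R 4.3.3 (filterByExpr with minimum count 10 and minimum total count 15, TMM, glmQLFit and glmQLFTest, Benjamini-Hochberg adjustment over 15580 genes). A call is an adjusted p under 0.05, and a DEG also has an absolute log2 fold change over 1, as in the methods of the study, which used DESeq2. The SE was obtained from the log2 fold change and the square root of F, and intervals use the degrees of freedom of that test. Single values were compared by exact permutation tests. In simulated counts for this comparison with 15611 tested genes, 97 of 100 changes of 4-fold and 75 of 100 changes of 2-fold were recovered, with 8 false calls. The simulation gave every gene the same relative spread between mice beyond counting error. These shares therefore do not give the power for the 10 genes, of which Mirg, Peg3 and Plagl1 had an SE of 0.5, 0.51 and 0.68. No 2 replicates were alike within counting error (chi-square per degree of freedom 17.8 to 39). The labels number the samples without naming animals, so p-values measure the spread between these samples. Sequences came from RefSeq (GRCm38.p6). Alternatives used DESeq2 1.42.0 and limma 3.58.1.

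The 10 genes, the gene lists and the tests were chosen with earlier results of these data known. The genes named are the 10, called genes of the lists by size of change, Igf2, genes that overlap them and, of the cell type lists, counts, ranges and defining markers. Elavl4 is given per mouse after its values were seen. Some markers of the neural list are not reported here.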

Additional observations from a re-analysis of the deposited data

How the results depend on the processing

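The count of called genes among the 10 (1 by edgeR) was 2 with DESeq2 (Meg3 and Mest), 0 with a replicate block, 0 to 2 with each mouse left out in turn, and 0 with both replicates 2 left out, an alternative chosen after seeing the seminal vesicle transcripts in these libraries. It was 1 with limma on log2(FPKM + 0.1) and on log2(FPKM + 1), with median-of-ratios or total-count scaling and without a filter on low counts. Dlk1 had too low an FPKM to enter either limma fit. The sign of the log2 fold change was kept for all 10 genes in every alternative run.

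The other imprinted genes (6 called) gave 2 to 7 with single mice left out and 3 without both replicates 2. The imprint regulators (2 called) gave 0 to 2 with single mice left out and 0 without both replicates 2. The relatives and partners (2 called) gave 1 with either limma fit and with total counts, 0 with the replicate block, 0 to 2 with single mice left out and 0 without both replicates 2. The rows from Dlk1 to Dio3 (1 called) gave 2 with DESeq2, 0 to 1 with single mice left out and 0 without both replicates 2. Fits without one or more mice have fewer degrees of freedom and called fewer genes in all, from 1929 to 2741 with one mouse left out and 1354 with both replicates 2 left out, against 3061. The cause of the shifts between settings was not tested. The summed level of Meg3, Rian and Mirg differed by -0.94 to -0.47 with single mice left out. The difference in the Dlk1 to Meg3 ratio (-0.08) ranged from -0.70 to 0.53 and reversed, to 0.53, without T + E2 replicate 2.

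The labels give no meaning to a shared replicate number. Deviations of samples with the same number had correlations across genes of -0.0722, 0.0388 and 0.0129, and those of samples with different numbers -0.17 to 0.167. Both replicates 2 held seminal vesicle transcripts (9894 CPM in CON and 599.9 CPM in T + E2). With 3 samples in a group the correlations cannot decide whether samples were paired. With the replicate block the log2 fold change of Mest was -1.51 (edgeR adjusted p = 0.0584), and 2174 genes were called in all. Mirg, Dlk1 and H19 rest on 4 to 42 counts a mouse, which limits what could be detected.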
